A study of Mus musculus with 2 samples.

Results

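Mir23a, Mir27a and Mir24-2 on chromosome 8 and Mir23b, Mir27b and Mir24-1 on chromosome 13 form a pair of matching microRNA clusters. The 6 genes were chosen by their GENCODE M21 symbols, out of 2202 microRNA genes in the count tables, and all 6 had at least 10 reads in each library, the minimum used here to call a gene detected. The tissue was the gastrocnemius, the large muscle of the calf, of female mice aged 36 days. The animals were of the strain B6CASTF1/J, an F1 cross of C57BL/6 and CAST/EiJ mice, untreated as far as the labels say. There were 2 libraries of small RNA, labelled biological replicates 1 and 2, and no other group. The labels number the mice separately but give both the same donor identifier. Every SD between the libraries may therefore hold technical spread only, and the intervals cover counting error only.

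A microRNA is cut from a hairpin RNA, and the strand that is loaded into an Argonaute protein pairs through its seed, bases 2 to 8, with messenger RNAs and lowers their output. The clusters arose by duplication of 1 ancestral cluster, so each Mir23, Mir27 and Mir24 gene has a counterpart on the other chromosome. In muscle, miR-23a is known to act on messages of the ubiquitin ligases of muscle wasting, miR-27 on the myogenic regulator Pax3 and on myostatin, and miR-24 to promote the differentiation of myoblasts. The clusters are also known for their activity in endothelial cells and the growth of blood vessels.

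The mature sequences show which copies a short read can tell apart. The RefSeq table for GRCm38.p6, the build called mm10, held the hairpins of all 6 genes and 11 entries for their mature arms, with 10 distinct sequences. The 3p arms, which come from the 3′ side of the hairpin, follow 5′ to 3′ with the seed in capitals for 5 of the 6 genes, all but Mir23b with its miR-23b-3p.
miR-23a-3p: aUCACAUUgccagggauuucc
miR-27a-3p: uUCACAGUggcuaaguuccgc
miR-27b-3p: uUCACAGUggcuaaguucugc
miR-24-3p, from both Mir24-2 and Mir24-1: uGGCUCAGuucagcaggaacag
miR-27a-3p and miR-27b-3p shared the seed UCACAGU and differed only by C19U, counted from 1 at the 5′ end with the base of miR-27a-3p first. The first 18 bases of miR-23a-3p were also in the hairpin of Mir23b, and its whole sequence of 21 bases was in no other hairpin of the table. The 22 bases of miR-24-3p lay whole in both Mir24 hairpins. A read of exactly miR-24-3p therefore matches both loci and cannot be placed at either, whereas whole miR-23a-3p, miR-27a-3p and miR-27b-3p each occur in only 1 hairpin of the table. miR-23b-3p was not compared.

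The 5p arms of the Mir24 genes do differ and are shown because reads of them can be placed.
miR-24-2-5p: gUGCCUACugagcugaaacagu
miR-24-1-5p: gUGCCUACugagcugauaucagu
Their first 16 bases are alike, and U17A is the first of 5 differences, with the base of miR-24-1-5p given first. Of the 22-base windows of the Mir24-2 hairpin, 7 of 86 also occurred in Mir24-1, and no such window of Mir23a, Mir27a, Mir23b or Mir27b occurred in any other hairpin. Among the other mature entries searched, the seed of miR-24-3p was found in Mir6413, Mir6410, Mir6369 and Mir5124b, which had 0 reads in both libraries. This search left out the mature entries of a chromosome that holds none of the cluster genes.

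The clusters are compact and lie on the plus strand. On chromosome 8, Mir23a is at 84208518 to 84208592, Mir27a at 84208672 to 84208758 and Mir24-2 at 84208815 to 84208921, a span of 404 bases. No annotated gene contains them. The nearest protein-coding genes were Zswim4, 1756 bases away on 1 side, and Nanos3, 23300 bases away on the other, and the last 2 bases of Mir24-2 overlap an exon of the noncoding RNA gene Gm26532. On chromosome 13, Mir23b is at 63300484 to 63300557, Mir27b at 63300712 to 63300784 and Mir24-1 at 63301208 to 63301275, a span of 792 bases. These 3 genes lie within 2010111I01Rik, an aminopeptidase gene now called Aopep, on the same strand. Mir23b is in an intron of it, while Mir27b and Mir24-1 overlap exons of some of its transcripts. All 3 are in introns of Fancc, a DNA repair gene, on the other strand. Opposite each Mir24 gene stands a further microRNA gene, Mir3074-2 on chromosome 8 and Mir3074-1 on chromosome 13.

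**Figure D1:**
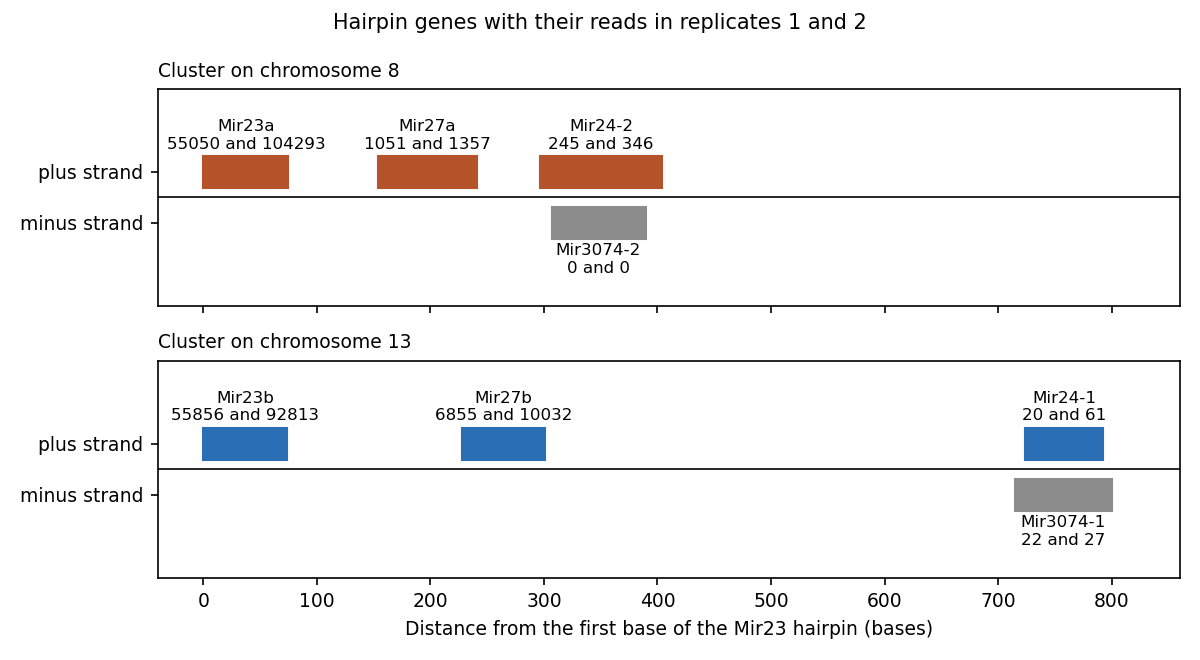
Hairpin genes of the clusters, drawn to scale as boxes along the distance in bases from the first base of the Mir23 hairpin, with plus-strand genes above and minus-strand genes below the line. The numbers are reads on the strand of the gene in replicates 1 and 2, and the Mir23 genes have the most reads of each cluster, 55050 to 104293.

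The libraries held 1593787 gene-assigned reads in replicate 1 and 2078101 in replicate 2. Reads that matched several places, 75.4% and 77.6% of all reads, belong to no gene. Of the marker genes of skeletal muscle, 7 of 9 were detected and together held 2.21% and 6.98% of gene-assigned reads. Most of these were reads of Mir206 alone, 32871 in replicate 1 and 139295 in replicate 2. Multiply matched reads of the muscle genes are not in these shares. Of 6 neural marker genes 5 had no read in either library, and multiply matched reads of these are uncounted, so the zeros are no sign of absence.

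By counted reads, the Mir23 genes were among the most abundant microRNA genes, whereas Mir27 was intermediate and Mir24 low. Multiply matched reads have no part in this order, so it need not be the order of the microRNAs in the muscle. Together the 6 genes held 7.47% of gene-assigned reads in replicate 1 and 10.05% in replicate 2, or 8.76% ± 1.83 (SD, n = 2). The chromosome 8 cluster held 4.32% ± 1.11 and the chromosome 13 cluster 4.44% ± 0.718. Chromosome 13 was higher in replicate 1, 3.94% against 3.54%, and chromosome 8 in replicate 2, 5.10% against 4.95%. Levels are given as reads per 1000000 gene-assigned reads (CPM). They are not divided by length, since a read spans a whole mature microRNA. Adapter ligation favours some sequences over others, so levels of different microRNAs can only be compared roughly. In a whole tissue, fewer cells of a type and less RNA per cell cannot be told apart.

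Mir23a had 55050 reads in replicate 1, 34540 CPM, and 104293 reads in replicate 2, 50187 CPM. Its rank among all genes, by counted reads, was 8 and 7. Mir23b had 55856 reads, 35046 CPM, and 92813 reads, 44662 CPM, at ranks 6 and 8. The copies changed places between the libraries, Mir23b being slightly higher in replicate 1 and Mir23a in replicate 2. Their means were 42364 ± 11064 and 39854 ± 6800 CPM (SD, n = 2). Both copies were higher in replicate 2, so each SD holds a shift that they shared.

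Mir27b, the more abundant miR-27 gene, had 6855 and 10032 reads, 4301 and 4827 CPM, and rank 32 in both libraries. Mir27a had 1051 and 1357 reads, 659 and 653 CPM, at ranks 72 and 74. The chromosome 13 copy was thus higher in both libraries and their values did not overlap, with means of 4564 ± 372 and 656 ± 4.55 CPM (SD, n = 2). This was 6.52 times as many reads in replicate 1 and 7.39 times as many in replicate 2.

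Mir24-2 had 245 and 346 reads, 154 and 166 CPM, at ranks 143 and 134. Mir24-1 had 20 and 61 reads, 12.5 and 29.4 CPM, at ranks 253 and 208. For the miR-24 genes the order was the reverse of that for miR-27, with the chromosome 8 copy higher in both libraries. Since whole miR-24-3p can be placed at neither gene, these values give no level of miR-24-3p, and how many of the multiply matched reads were miR-24-3p was not measured. Among genes in the sequence table, 92 have a mature arm that lies whole in another hairpin, and of these 33 were detected, with a median of 89.3 CPM and 3 above 1000 CPM. Of the 862 without such an arm, 197 were detected, with a median of 177 CPM, and 51 were above 1000 CPM. The share detected was 35.9% with such an arm and 22.9% without.

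**Figure D2:**
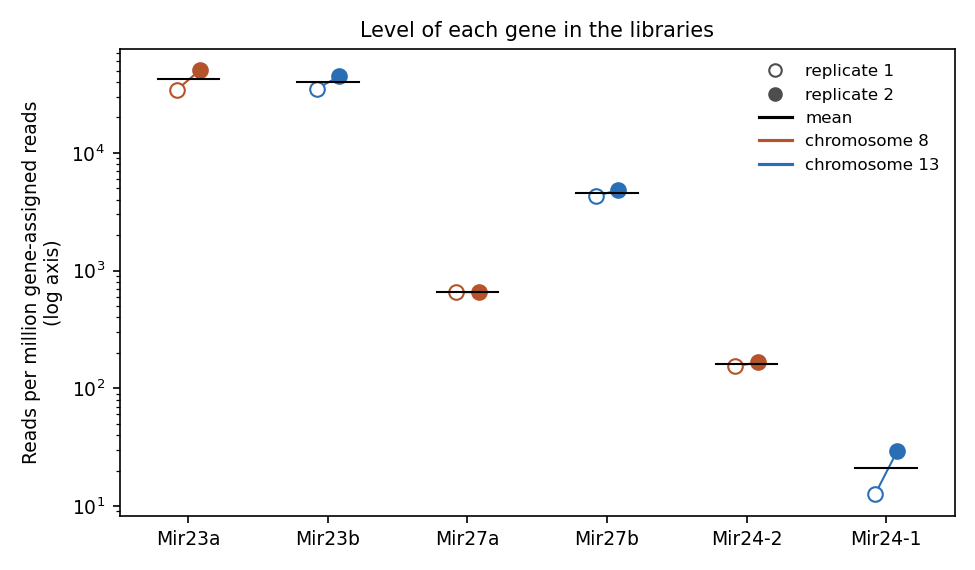
Reads per 1000000 gene-assigned reads of each gene on a log axis, with open points for replicate 1, filled points for replicate 2 and a black bar for the mean of the 2 libraries. The Mir23 genes lie together at the top, with 34540 CPM as their lowest value, Mir27b lies above Mir27a, and Mir24-2 lies above Mir24-1.

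The share of reads taken by the chromosome 8 copy was different for each pair of counterparts. It needs no scaling between the libraries. Mir23a made up 49.6% of Mir23a and Mir23b reads in replicate 1 (95% interval 49.3 to 49.9, Clopper-Pearson) and 52.9% in replicate 2 (52.7 to 53.1). Mir27a made up 13.3% (12.6 to 14.1) and 11.9% (11.3 to 12.5) of the miR-27 reads. Mir24-2 made up 92.5% (88.6 to 95.3) and 85.01% (81.2 to 88.3) of the counted Mir24 reads. Reads copied by PCR cannot be recognised, so these and all other intervals cover counting error only. The means were 51.3% ± 2.32, 12.6% ± 0.975 and 88.7% ± 5.26 (SD, n = 2), so the gaps between the pairs were far larger than the spread between the libraries.

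The balance between the copies differed between the libraries, and not in 1 direction. The odds of a read coming from chromosome 8 were 1.14 times as high in replicate 2 for the Mir23 pair (95% counting interval 1.12 to 1.16). They were 0.882 times as high for the Mir27 pair (0.809 to 0.963) and 0.464 times as high for the Mir24 pair (0.258 to 0.803). With 1 library per replicate, no spread between preparations can be set beside these shifts.

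**Figure D3:**
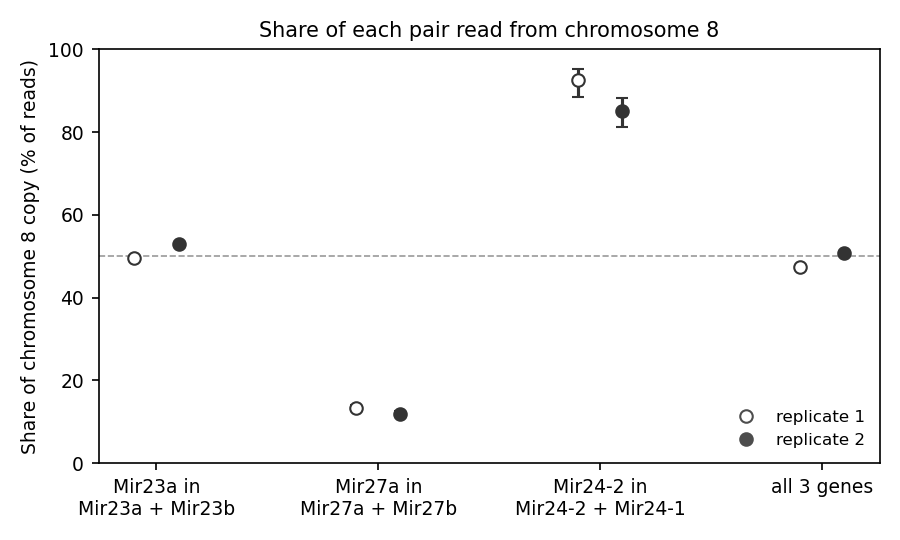
Percent of counted reads of each pair that came from the chromosome 8 copy, with open points for replicate 1, filled points for replicate 2, exact 95% counting intervals as bars and a dashed line at equal shares. The Mir23 pair lies at 49.6% and 52.9%, the Mir27 pair at 13.3% and 11.9% and the Mir24 pair at 92.5% and 85.01%.

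Within a cluster the counts fell from Mir23 to Mir27 to Mir24 in both libraries, in the order of the genes along the strand. The Mir24 counts lack whole miR-24-3p, which can be placed at neither gene, so the steps to Mir24 are steps in placeable reads only. Whether output falls along the strand was not tested. On chromosome 8 Mir23a had 52.4 times the reads of Mir27a in replicate 1 and 76.9 times in replicate 2. Mir27a had 4.29 and 3.92 times the reads of Mir24-2. On chromosome 13 the step from Mir23b to Mir27b was smaller, 8.15 and 9.25 times, and the step from Mir27b to Mir24-1 was 343 and 164 times. On the log2 scale the Mir23 to Mir27 step was 5.99 ± 0.39 on chromosome 8 and 3.12 ± 0.13 on chromosome 13 (SD, n = 2). Mir23a thus made up 97.7% and 98.4% of the counted reads of its cluster, and Mir23b 89.04% and 90.2% of its own.

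Set against each other with TMM scaling, which evens out the composition of the libraries, all 6 genes had ratios above 1 in replicate 2 over replicate 1. So did 140 of the 273 detected genes (51.3%). The ratio of Mir27a fell below 1 when no TMM factor was used. Those of Mir27a, Mir24-2 and Mir27b did when the scaling was by all reads of the library. An exact binomial test with Benjamini-Hochberg adjustment over 273 detected genes called 4 of the 6 genes higher in replicate 2 and none lower. Over all detected genes it called 33.3% higher and 29.7% lower, or 91 and 81 genes. Scaled by all reads the split was 58 higher and 119 lower over all genes, and 3 higher (Mir23a, Mir23b, Mir24-1) and 1 lower (Mir27a) among the 6. The test compares 2 libraries under counting noise and not conditions, and it calls nearly all deep genes, 62 of the 72 with at least 1000 reads in both.

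In replicate 2 Mir23a was 1.52-fold higher (1.51 to 1.54, a 95% counting interval), Mir23b 1.33-fold (1.32 to 1.35) and Mir27b 1.18-fold (1.14 to 1.21). The smallest of these counts gave the highest ratio, 2.45-fold for Mir24-1 (1.46 to 4.29, adjusted p = 0.000663 by the exact binomial test). Mir27a, with a fold of 1.04 (0.956 to 1.13, adjusted p = 0.482 by the same exact test), and Mir24-2, with 1.13 (0.961 to 1.34, adjusted p = 0.196 by that exact test), did not pass. The summed clusters were 1.511-fold (1.496 to 1.527) higher on chromosome 8 and 1.318-fold (1.305 to 1.331) on chromosome 13. Mir23a and Mir24-1 exceeded a difference of 1.5-fold, 2 of 6 genes, as did 31.5% of all detected genes, and Mir23a was at 1.45-fold with no TMM factor. Of the 72 deep genes, 2 had a ratio above that of Mir23a, while 4 were over 1.5-fold higher and 8 over 1.5-fold lower. Among all 273 detected genes Mir23a was at rank 42 by ratio, counted from the highest. The median log2 ratio of the 6 was 0.33 against 0.02 for all detected genes. Their median absolute log2 ratio of 0.33 was close to the 0.36 of all. A dispersion fitted to the same 2 libraries holds the differences under test, so a test at that dispersion cannot decide which genes differed. At the common dispersion of the same libraries (a coefficient of variation of 0.335), edgeR's exact test called none of the 6, none at an unadjusted p under 0.05, and 1.47% of all genes.

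Marker folds and calls are given with TMM scaling only. Scaling by all reads moved the median log2 ratio of all genes from 0.02 to -0.23. The endothelial marker gene Mir126a stood 1.34-fold higher in replicate 2 (1.33 to 1.35). Of the other endothelial markers, neither Mir221 (0.993-fold, 0.887 to 1.11) nor Mir222 (0.826-fold, 0.508 to 1.34) passed. The 3 genes summed to 8.86% of gene-assigned reads in replicate 1 and 11.3% in replicate 2. The smooth muscle genes Mir143 and Mir145a were both lower, with 12.03% and 6.25% of reads summed. The erythroid genes Mir451a and Mir144 were lower too, at 0.253-fold (0.249 to 0.258) and 0.235-fold (0.221 to 0.250), and summed to 3.73% of reads in replicate 1 and 0.898% in replicate 2. Of the 4 leukocyte genes 2 were higher and 2 lower, with 0.142% and 0.209% of reads. The skeletal muscle list had 4 genes higher and none lower of 7 detected. Whether these cell types have a part in the ratios of Mir23a and Mir23b was not tested.

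**Figure D4:**
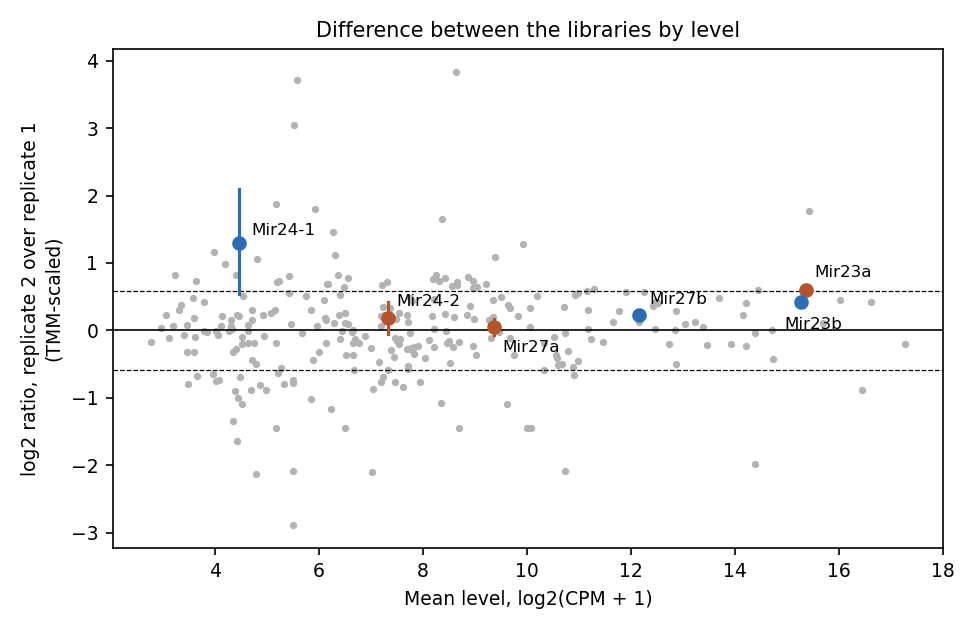
Each grey point is 1 of 273 detected microRNA genes, with mean log2(CPM + 1) on the x axis and the TMM-scaled log2 ratio of replicate 2 over replicate 1 on the y axis. Dashed lines mark 1.5-fold and coloured bars are 95% counting intervals. All 6 labelled genes lie above 0 with this scaling, as do 140 of the 273. Mir27a lies at 0.05 (-0.014 with no TMM factor), and Mir24-2 at 0.18 and Mir27b at 0.23 (-0.063 and -0.012 scaled by all reads).

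Neighbours within the clusters did not share 1 common ratio between the libraries. The log2 ratio of Mir23a exceeded that of Mir27a by 0.55, with 79 bases between the hairpins, while Mir23b and Mir27b differed by 0.18 and Mir27a and Mir24-2 by 0.13. The pairs with the sparsely counted Mir24-1 differed most, by 1.06 from Mir27b and 0.88 from Mir23b. The median absolute difference over the 6 pairs was 0.49. It was 0.42 over the 329 other pairs of detected genes within 10 kb on 1 strand and 0.57 over all pairs of detected genes. Most of the 329 pairs came from a single region, from Mir770 to Mir410, so their median describes mainly that region. With at least 50 reads in both libraries, which leaves out Mir24-1, the median of the 4 remaining pairs was 0.30 against 0.38 for the others.

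**Figure D5:**
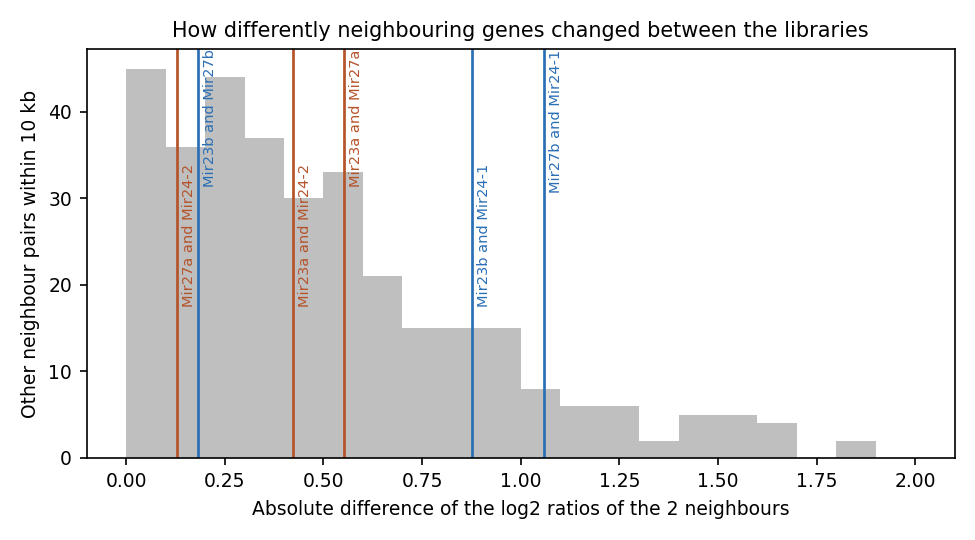
The grey histogram counts the 329 other neighbour pairs by the absolute difference of their log2 ratios (replicate 2 over replicate 1). Most of these pairs come from the region from Mir770 to Mir410. Coloured lines mark the 6 pairs within the clusters. Mir27a with Mir24-2 and Mir23b with Mir27b lie lowest, at 0.13 and 0.18, and both pairs with Mir24-1 lie highest.

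The genes most like each member were found by the distance between their log2(CPM + 1) values in the 2 libraries. Mir27b was nearest to Mir28a (distance 0.08) and Mir139 (0.27), and Mir27a to Mir351 (0.11) and Mir181b-2 (0.14). Mir24-2 was nearest to Mir152 and Mir673, both at 0.11, and Mir24-1 to Mir505 (0.31) and Mir92-2 (0.37). Both Mir23 genes had Mirlet7i as the nearest, at 0.60 and 0.63, with Mir206 next for Mir23a (0.85) and Mir22 next for Mir23b (0.84). With the members left out, the nearest genes thus lay farthest away for the Mir23 genes, which stood at ranks 7 and 8 of the mean CPM.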

How the data were processed

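The authors deposited unnormalized read counts for each microRNA gene on mm10 with the M21 annotation, as the read-me texts beside them state. Which aligner and counter were used is not given in the sources used here. The 3 count columns carry no names and were read, from their values, as without regard to strand, on the strand of the gene and on the opposite strand. The second was used. Rows of unmapped, multiply matched and unassigned reads stayed out of all totals; the unmapped made up 6.37% and 5.98% of reads and those outside microRNA genes 1.49% and 1.65%. A count of 0 allows up to 3 counts, 1.88 CPM in replicate 1 and 1.44 CPM in replicate 2.

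All 2202 identifiers matched the annotation, and 968 had a RefSeq hairpin by symbol. No genome sequence was used, so sequences were compared among 1005 hairpins only. TMM factors and the dispersion came from edgeR 4.0.16, size factors from DESeq2 1.42.0 (R 4.3.3), and other values from Python 3.11.15 with scipy 1.17.1. edgeR's quasi-likelihood test needs residual degrees of freedom, which 1 library against 1 does not leave, so a two-sided exact binomial test against the scaled library sizes was run at an adjusted threshold of 0.05. Intervals of the odds are conditional exact for the Mir27 and Mir24 pairs and by normal approximation for the Mir23 pair. The genes named were the 6, those opposite them or sharing a 3p seed, the 2 genes outside the clusters nearest to each, and marker genes beside a result. The genes and lists were chosen with earlier results of these data known.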

Additional observations from a re-analysis of the deposited data

Results flagged for a closer look

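Reads on the opposite strand of Mir24-1, a column that the comparisons do not use, numbered 22 in replicate 1 and 27 in replicate 2, more than the 3 counts which a zero count permits. They are the reads counted for Mir3074-1, whose hairpin covers all 68 bases of Mir24-1 on the minus strand. In replicate 1 they outnumbered the 20 reads of Mir24-1 itself. The other 5 genes had no read on the opposite strand in either library, and Mir3074-2 opposite Mir24-2 had 0 reads. Reads from stretches that the Mir24 hairpins share match both loci on either strand and are not counted. The 0 of Mir3074-2 is therefore no sign of absence.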

How the results depend on the processing

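The number of the 6 genes called by the exact binomial test stayed at 3 or 4 under every alternative. Only 4 of the 6 were tested without regard to strand, and 5 with at least 50 reads in both. Over all genes the share called by this test ran from 32.1% with no read minimum to 76% with at least 50 reads in both. The exact test of edgeR at a common dispersion called 0 of the 6, with a lowest unadjusted p of 0.106, and 1.47% of all genes. The dispersion of that edgeR test came from the same 2 libraries and holds the differences under test, so its result decides nothing. The number past 1.5-fold moved from 2 to 1 without regard to strand and with no TMM factor. It was also 1 with scaling by all reads and with no read minimum, and 0 with at least 50 reads in both. The share of all genes past 1.5-fold ran from 27.5% with at least 50 reads in both to 59.5% with no read minimum. Without regard to strand Mir24-1 and Mir24-2 have 0 reads, because they overlap Mir3074 genes, so those ratios and the Mir24 share had no value there. The log2 ratio of Mir27a turned to -0.014 with no TMM factor. Scaling by all reads, which moved the median of all genes from 0.02 to -0.23, turned Mir27a to -0.19, Mir24-2 to -0.063 and Mir27b to -0.012; the cause was not tested. The chromosome 8 and 13 shares were 6.16% and 6.37% of reads counted without regard to strand, whose total is smaller, and 0.672% and 0.694% of all reads, whose total is larger. Without the most abundant gene in the total they were 5.12% and 5.28%. Leaving out a replicate gave 3.54% to 5.10% for chromosome 8 and 3.94% to 4.95% for chromosome 13. It leaves no ratio between the libraries. Depth limits Mir24-1 above all, whose share in replicate 1 rests on 20 reads.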
